A study of Mus musculus with 17 samples.

Results

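Primary hepatocytes and primary cholangiocytes, the 2 epithelial cell types of the liver, were compared with each other on 6 of the 17 single-colour mouse arrays of a study of hepatic progenitor cells. The 4 arrays titled as primary hepatocytes and the 2 titled as primary cholangiocytes were taken by title, and these 2 are all the primary cholangiocyte arrays of the series. The remaining 11 arrays held undifferentiated progenitors and progenitors differentiated in culture, and entered only the estimate of the spread. Every group came from Foxl1-CRE; RosaYFP mice aged 6 to 10 weeks, in which Cre recombinase made under control of the Foxl1 gene switches on a yellow fluorescent reporter. The labels do not say how the primary cells were isolated or whether reporter signal was used to choose them. They also do not give the number of animals. A p-value here is set against the spread between arrays of a group, pooled over all 17 arrays, which may be technical. The standard errors and p-values therefore also carry the spread among the 11 progenitor arrays. Only 2 cholangiocyte arrays limit the precision of every comparison.

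Hepatocytes make up most of the liver mass. They make most plasma proteins, detoxify foreign compounds, remove ammonia, balance blood glucose and lipids and make bile. Cholangiocytes line the bile ducts as a polarised epithelium with keratin filaments, tight junctions and a primary cilium, and they modify bile by moving ions and water. Both types derive from a common precursor in the fetal liver.

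The labels were first set against markers of each type. The probes of Alb, Krt7 and Epcam are shown because these genes carry that check, and each line gives the 60 bases of the probe as the files list it, 5′ to 3′. The files place them in mm9 at chr5:90901598-90901657, chr15:101253718-101253777 and chr17:88048972-88049800, and RefSeq lists all 3 genes on the plus strand. The Epcam probe covers a genomic span longer than its own length, as a probe over joined exons does.
Alb: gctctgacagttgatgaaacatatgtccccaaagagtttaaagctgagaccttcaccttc
Krt7: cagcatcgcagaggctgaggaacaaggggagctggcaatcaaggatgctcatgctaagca
Epcam: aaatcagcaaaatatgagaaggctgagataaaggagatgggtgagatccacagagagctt

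Levels are given on a log2 scale on which the 75th percentile intensity of each array is 0 and 1 unit is a 2-fold step, and levels of different probes are not compared. Alb, which encodes the main carrier protein of plasma, stood at 9.75, 9.46, 10.04 and 10.31 on hepatocyte arrays 1 to 4 and at -4.94 and -9.65 on cholangiocyte arrays 3 and 4. The cell types were far apart, and the cholangiocyte arrays differed from each other, and the scanner software did not mark array 4 as well above background. The log2 difference, hepatocyte minus cholangiocyte, was 17.18 ± 3.97 [1 of 2] (SE, limma, adjusted p = 0.00246). A bracket after a difference gives how many arrays of the lower type were well above background where not all were. Such a difference is inexact, since a dim array gives only a limit. Normexp, another background correction, was run on the mean spot signal and its background, and an offset of 50 was added to the result. With normexp the Alb difference was 13.98. Over the text 120 of the 171 named genes that passed then moved by over 1.5-fold, 119 of them to a smaller difference. Bhmt, an enzyme that remakes methionine from homocysteine, stood at 8.95, 9.01, 8.87 and 9.67 in hepatocytes and at -9.2 and -6.69 in cholangiocytes, again with no overlap (difference 17.07 ± 2.14 [1 of 2], adjusted p = 1.32e-05).

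Krt7, a keratin of duct epithelium, was at -8.49, -7.63, -7.16 and -6.81 on the hepatocyte arrays, none of them well above background, and at 5.49 and 5.46 on the cholangiocyte arrays. Because such a dim value is only an upper limit, the difference is given as a bound: Krt7 was at least 3048-fold higher in cholangiocytes. The bound sets each dim array at its dimmest signal well above background, or at the probe's own value if that was higher. Epcam, an epithelial adhesion molecule, was at -7.77, -6.36, -6.77 and -6.17 in hepatocytes and at 3.05 and 2.22 in cholangiocytes, at least 426-fold higher in the latter. Cd24a, a surface protein of duct and progenitor cells, was at -8.74, -8.01, -8.29 and -7.73 and 6.02 and 5.84, at least 4191-fold higher in cholangiocytes. Krt19, the partner keratin of simple ducts, was well above background on 1 hepatocyte array and differed by -14.0 ± 0.62 [1 of 4], or by -10.37 with normexp. For these 4 genes both cholangiocyte arrays lay far above all 4 hepatocyte arrays.

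**Figure D1:**
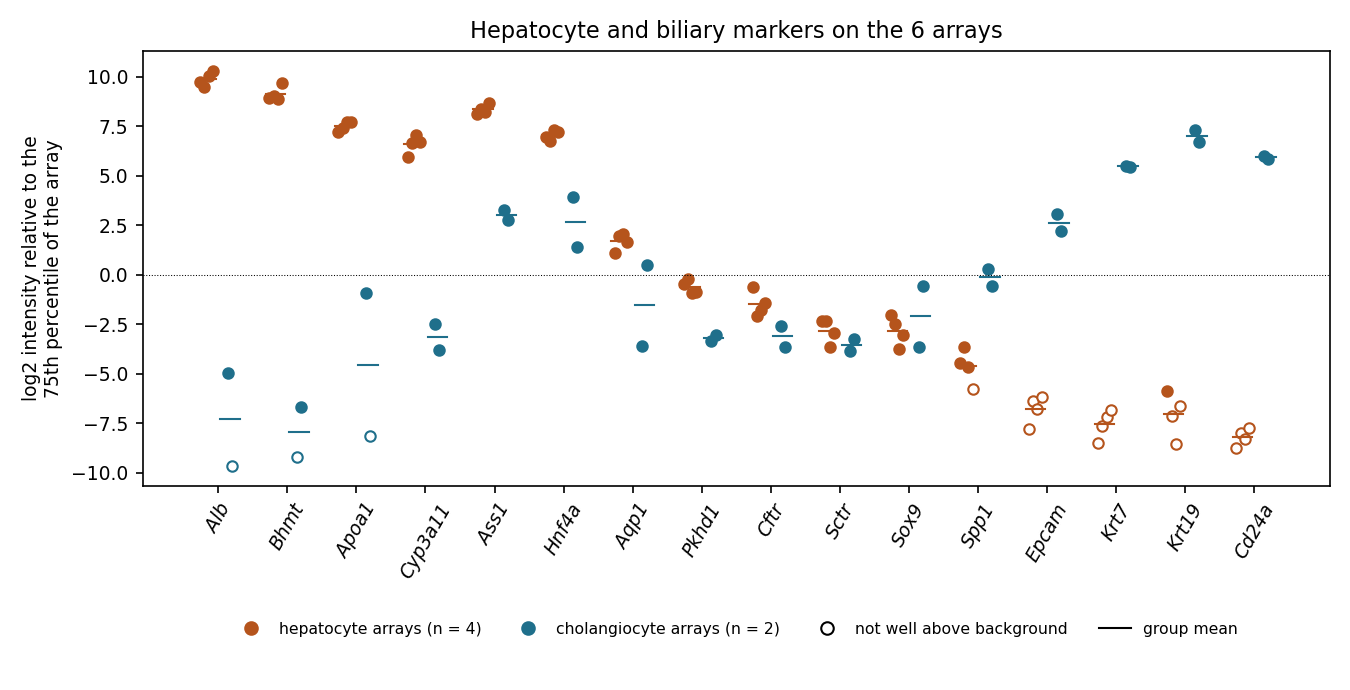
Relative log2 intensity of 16 hepatocyte and biliary markers on each of the 6 arrays, with a line at each group mean and open symbols where a spot was not well above background. Krt7, Krt19, Epcam and Cd24a separate the cell types in 1 direction and Alb, Bhmt and Cyp3a11 in the other, while Sox9, Cftr and Sctr overlap or nearly meet.

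A gene is counted below as higher in a cell type if it passed the test (adjusted p under 0.05 over 25971 genes) and was well above background on every array of that type. Of all genes tested, 24.4% were counted as higher in hepatocytes and 21.6% as higher in cholangiocytes, and counts of gene lists are to be read against these shares. All 15 hepatocyte markers were counted as higher in hepatocytes, with a median difference of 11.33, 10.57 with dim genes at their bounds and 9.99 with normexp. Besides Alb and Bhmt they included Cyp3a11, a P450 that oxidises many drugs (9.72 ± 1.69), Asgr1, a receptor that clears desialylated glycoproteins (12.67 ± 1.7), and Hnf4a, a nuclear receptor that drives hepatocyte genes (4.38 ± 0.55). Ttr, Apoa1 and Serpina1a no longer passed without cholangiocyte array 4, with adjusted p of 0.0942, 0.0802 and 0.0518, and their differences were then 5.63, 8.43 and 10.01.

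Of 15 biliary markers, 10 were counted as higher in cholangiocytes and 2 as higher in hepatocytes, with a median of -6.58, -6.11 with dim genes at their bounds and -3.25 with normexp. Beside the keratins and Epcam, the 10 included Cldn7, a tight junction protein (-7.83 ± 0.29), Prom1, a protein of apical membrane protrusions (-9.77 ± 1.91 [2 of 4]), Anxa13, an annexin of epithelial membranes (-6.94 ± 0.73 [1 of 4]), and Spp1, secreted osteopontin (-4.51 ± 0.54 [3 of 4]).

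In all, 5 biliary markers did not follow the label. Aqp1, a water channel, stood at 1.1, 1.97, 2.07 and 1.63 in hepatocytes and at -3.58 and 0.51 in cholangiocytes, and Pkhd1, a protein of the primary cilium, at -0.45, -0.23, -0.92 and -0.85 and -3.34 and -3.06. Both were counted as higher in hepatocytes (3.23 ± 1.05 and 2.59 ± 0.53), and Aqp1 lost the call without cholangiocyte array 3, where the difference was 1.18 (adjusted p = 0.415), and also with the 6 arrays alone, the slide as a block or array weights (adjusted p = 0.055, 0.0731 and 0.0543). Cftr, the chloride channel opened by secretin signalling, differed by 1.65 ± 1.66 (adjusted p = 0.425, 0.0407 with the 6 arrays fitted alone), and Sctr, the secretin receptor, by 0.72 ± 0.46 (adjusted p = 0.21, 0.00342 with normexp and 0.00138 with the slide as a block). Sox9, a duct transcription factor, stood at -2.04, -2.46, -3.75 and -3.04 in hepatocytes and at -3.64 and -0.55 in cholangiocytes, so the cholangiocyte arrays lay on either side of most hepatocyte arrays (-0.73 ± 0.68, adjusted p = 0.388). Without cholangiocyte array 3 the Sox9 difference was -2.27 (adjusted p = 0.00755). The bulk values cannot tell apart fewer cells of a type from less RNA per cell.

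Over all genes, 7271 passed as higher in hepatocytes and 5618 as higher in cholangiocytes, and 6331 and 5603 of these were counted. A difference of at least 2-fold was reached by 5273 and 4241 of the counted genes, and one of at least 16-fold by 1299 and 1313. The arrays of the cell types did not overlap for 6185 and 5454 of the counted genes, and for 60.4% of all genes. The hepatocyte arrays had lower intensities, with a 75th percentile of 547 to 986 against 2696 and 2867, and their 100 brightest probes held 18.3% to 22.5% of the signal against 11.9% and 12.1%. On this scale dim probes sat higher on hepatocyte arrays: 933 genes below background in both types had a median difference of 1.33, against 0.35 for all genes and 0.25 for the 16990 genes above background on all 6 arrays. Of the genes passing as higher in hepatocytes, 940 were not counted, against 15 for cholangiocytes. With other scalings the share of passing genes that were higher in hepatocytes was 50.4% (median) and 46.5% (quantile) in place of 56.4%, and with another background correction (normexp) 74.8%. Array pairs of 1 type correlated at 0.979 on average within hepatocytes and at 0.947 for the cholangiocyte pair, and pairs of different types at 0.766 on average, as a description over genes. On the 2 slides that held 1 array of each type, 99.0% to 99.95% of the counted genes kept their direction.

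**Figure D2:**
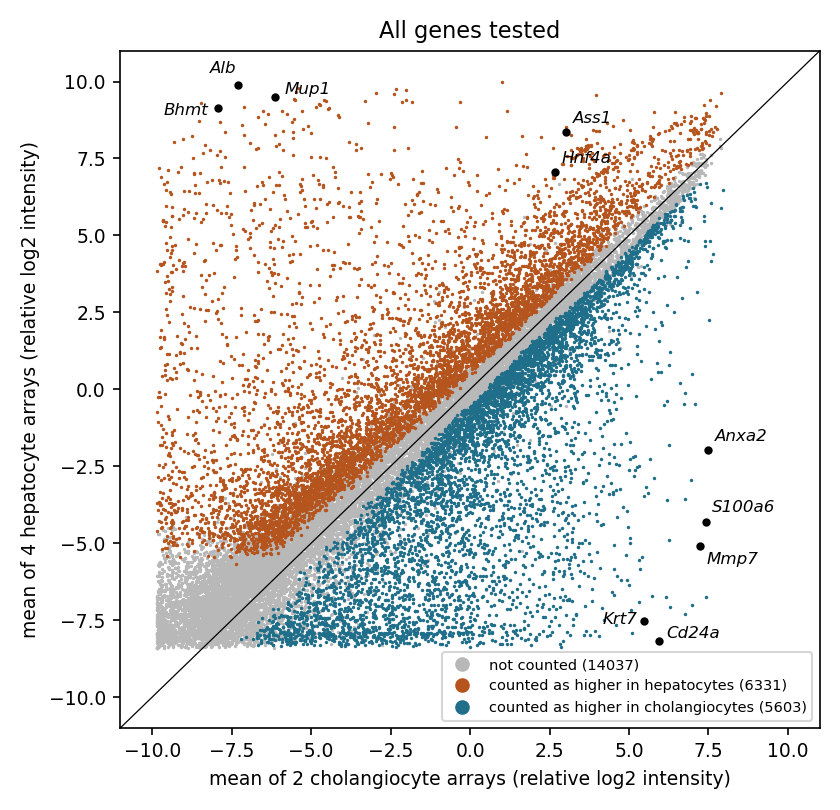
Mean relative log2 intensity of 25971 genes on the 4 hepatocyte arrays against the 2 cholangiocyte arrays, coloured by whether the gene was counted in either direction, with the line of equality. Counted genes reach far from the line on both sides, from Alb and Mup1 at the upper left to Krt7, Cd24a and S100a6 at the lower right.

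Among genes well above background on all 6 arrays with no overlap, Mup1, a major urinary protein that carries pheromones, had the largest difference toward hepatocytes (15.66 ± 0.76). Its probe may also read near-identical members of that family, several of which came next. The largest outside the family were Ahsg, the plasma protein fetuin-A (15.14 ± 2.92), and Cyp2e1, the P450 that oxidises ethanol (14.97 ± 1.42). Toward cholangiocytes the largest was S100a6, a calcium-binding protein of proliferating epithelium, at -3.92, -4.04, -4.66 and -4.59 in hepatocytes and 7.37 and 7.46 in cholangiocytes (-11.71 ± 0.22, adjusted p = 1.33e-13). Next came Ccn2, a matricellular protein (-11.14 ± 0.6), Anxa1, a phospholipid-binding annexin (-10.35 ± 0.45), Chga, a protein of secretory granules (-10.03 ± 0.57), and Lgals3, a galectin (-9.89 ± 0.33). S100a11 (-9.87 ± 0.25), Anxa2 (-9.47 ± 0.26) and Sftpd, a collectin first known from lung (-9.46 ± 0.68), were also among the 12 largest. Of the genes not above background in hepatocytes, Msln, the surface protein mesothelin, had the highest bound, at least 11804-fold.

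The secreted products of the liver were almost all higher in hepatocytes. Of 41 plasma carrier and acute-phase proteins tested, 40 were counted as higher in hepatocytes and 0 as higher in cholangiocytes, with a median of 11.73, 11.52 with dim genes at their bounds and 9.49 with normexp. Trf, the iron carrier transferrin, stood at 9.52, 9.44, 9.96 and 10.16 in hepatocytes and -1.53 and -3.14 in cholangiocytes (12.11 ± 0.56). Rbp4, the retinol carrier, differed by 14.33 ± 0.38, and Hpx, the heme scavenger hemopexin, by 13.64 ± 1.48. Cp, the copper oxidase ceruloplasmin, was also high in cholangiocytes, at 2.05 and 3.16 against 6.83, 7.23, 7.01 and 6.84 in hepatocytes, and differed by 4.37 ± 0.42. A second probe of Cp differed in the other direction, so its value is uncertain.

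All 23 clotting and fibrinolysis genes were counted as higher in hepatocytes (median 11.54, 11.41 with dim genes at their bounds and 10.02 with normexp), among them Fgb, a fibrinogen chain (14.31 ± 1.68), Plg, the precursor of plasmin (at least 35378-fold), and Serpind1, heparin cofactor II (at least 28027-fold). Of 29 complement genes, 27 were higher in hepatocytes, such as C8a, a part of the membrane attack complex (at least 9533-fold), and Mbl2, a mannose-binding lectin (13.98 ± 1.86). The exception was Cd55, which shields cells from complement, at -3.25, -1.96, -1.88 and -2.62 in hepatocytes and 2.26 and 2.57 in cholangiocytes (-4.84 ± 1.04). Of 23 apolipoprotein and lipoprotein assembly genes, 22 were higher in hepatocytes, including Apoe (12.59 ± 2.42) and Apof (at least 17313-fold). All 17 major urinary protein and male-biased genes were higher in hepatocytes (median 13.58, 11.97 with normexp), among them Hsd3b5, a steroid reductase (at least 20350-fold).

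Of 34 cytochrome P450 genes, the oxidases of drugs, sterols and fatty acids, 31 were counted as higher in hepatocytes (median 10.22, 10.04 with dim genes at their bounds and 9.09 with normexp). Cyp1a2, which metabolises caffeine, was at 3.56, 4.82, 4.16 and 4.17 in hepatocytes and -6.71 and -10.03 in cholangiocytes (12.55 ± 1.16 [1 of 2]), and Cyp2c29 differed by 14.02 ± 2.15. Cyp1b1 was the only member counted as higher in cholangiocytes, at least 2.23-fold (adjusted p = 0.0333), and it lost the call without cholangiocyte array 3, where the difference was -0.57, and without hepatocyte array 1 or 3, where it was -2.82 and -2.99. The call was also lost with the 6 arrays alone or array weights (adjusted p = 0.103 and 0.0778), and the difference was 0.01 with normexp. Por, the reductase that feeds electrons to microsomal P450s, did not pass (0.4 ± 0.47, adjusted p = 0.498), with 6.32, 7.29, 6.58 and 6.65 in hepatocytes and 6.15 and 6.47 in cholangiocytes. Of 42 conjugation and flavin oxidation genes, 33 were higher in hepatocytes, such as Ugt2b5, a glucuronosyltransferase (at least 23960-fold), and Ces3a, a carboxylesterase (16.55 ± 1.26 [1 of 2]). Gsta4, which detoxifies products of lipid peroxidation (-2.75 ± 0.55), and Gsto1 (-1.7 ± 0.3), both glutathione transferases, were higher in cholangiocytes.

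Nitrogen metabolism was divided in the same way. Of 14 urea cycle and ammonia genes, 12 were higher in hepatocytes and 1 in cholangiocytes, with Cps1, which fixes ammonia, at 4.66, 5.29, 5.0 and 4.98 against -5.42 and -5.76 (10.57 ± 2.09), Otc at least 11699-fold higher and Arg1, which releases urea, differing by 9.32 ± 2.25. Ass1, the step before argininosuccinate is split, was well above background in both, at 8.14, 8.38, 8.24 and 8.7 and 3.29 and 2.77 (5.34 ± 1.31). Glul, glutamine synthetase, did not pass (0.46 ± 0.47, adjusted p = 0.438). Of 46 genes of amino acid breakdown and the methionine cycle, 45 were higher in hepatocytes and 0 in cholangiocytes, including Hpd for tyrosine (at least 25939-fold) and Tdo2 for tryptophan (at least 9528-fold).

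For carbohydrate and lipid metabolism, 21 of 23 gluconeogenesis and glycogen genes were higher in hepatocytes (median 5.58). Pck1, the committed step of glucose synthesis, was at 6.61, 6.33, 7.29 and 6.76 in hepatocytes and -6.92 and -8.3 in cholangiocytes (14.36 ± 2.34 [1 of 2]). G6pc, which releases free glucose, varied among hepatocyte arrays, at 3.21, 5.69, 5.43 and 3.79, and stood at -4.38 and -4.58 in cholangiocytes (9.01 ± 1.31). Fbp1 differed by 13.31 ± 2.15. Pck2, the mitochondrial form of Pck1, was higher in cholangiocytes (-2.16 ± 0.41 [2 of 4]), with only -0.08 by normexp (adjusted p = 0.795). Foxo1, a transcription factor that insulin switches off, did not pass (0.07 ± 0.27, adjusted p = 0.844).

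Of 36 fatty acid oxidation and ketone genes, 33 were higher in hepatocytes and 0 in cholangiocytes (median 3.27), with the nuclear receptor gene Ppara differing by 7.44 ± 0.68 and Slc27a2, a fatty acid activator of peroxisomes, by 14.33 ± 2.25 [1 of 2]. Acadl, a dehydrogenase of long chains, differed by 0.92 ± 0.37 (adjusted p = 0.0531, and 0.0277 to 0.0495 under 4 other settings). All 46 oxidative phosphorylation genes tested were higher in hepatocytes, by a median of 1.26 that was far smaller than those of the lists above, and 31 of them were counted with quantile normalisation. Sdhb, a subunit of complex II, stood at 6.57, 6.66, 6.83 and 7.17 and 4.31 and 4.74 (2.28 ± 0.33), and Ndufb9, a subunit of complex I, differed by 1.71 ± 0.19. Of 38 sterol and fatty acid synthesis genes, 27 were higher in hepatocytes, and 17 without cholangiocyte array 4. Thrsp, which promotes lipid synthesis, stood at 5.27, 7.23, 5.74 and 6.51 in hepatocytes, highest on array 2, and at -5.48 and -4.35 in cholangiocytes (11.1 ± 1.82). Of 36 peroxisome and antioxidant genes, 28 were higher in hepatocytes and 4 in cholangiocytes. Uox, urate oxidase, differed by 15.37 ± 1.12 [1 of 2] and Nqo1, a quinone reductase, by 5.03 ± 0.95, while Gsr, glutathione reductase, did not pass (0.22 ± 0.29, adjusted p = 0.548). Rdh7, a retinol dehydrogenase, was at least 40607-fold higher in hepatocytes, and 21 of 28 vitamin, retinoid and steroid genes went the same way.

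Bile formation begins in hepatocytes, which make bile acids and export them across the canalicular membrane. Of 17 bile acid synthesis genes, 16 were higher in hepatocytes. Cyp7a1, the rate-limiting enzyme, was the most variable of them among hepatocyte arrays, at 2.04, 3.17, 1.14 and 4.27, and lay at least 1214-fold above cholangiocytes. Cyp8b1, which sets the share of cholic acid, followed the same order of hepatocyte arrays, at 2.74, 3.64, 2.22 and 4.22 (at least 1777-fold). Cyp39a1 did not pass (-0.46 ± 0.49, adjusted p = 0.455). Of 32 hepatocyte membrane transporters, 30 were higher in hepatocytes and 0 in cholangiocytes, and 12 were below background on both cholangiocyte arrays. They included Abcb11, the bile salt export pump (at least 7850-fold), Abcc2, which exports conjugated bilirubin (at least 3192-fold), and Slco1b2, an organic anion uptake carrier (15.62 ± 1.39 [1 of 2]).

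Of 44 liver transcription factors and nuclear receptors, 34 were higher in hepatocytes and 2 in cholangiocytes, with a median of 3.31, and 42 of the 44 were above background on both cholangiocyte arrays. Hnf4a itself stood at 6.96, 6.76, 7.3 and 7.2 in hepatocytes and at 3.93 and 1.42 in cholangiocytes. Creb3l3, a membrane-bound factor of fasting (11.76 ± 1.15), and Hlf, a clock-output factor (8.05 ± 0.39), had far larger differences than Hnf4a. Gata6 (-2.84 ± 0.32) and Cebpd (-2.76 ± 0.39) were higher in cholangiocytes. Onecut1 did not pass (1.34 ± 0.97, adjusted p = 0.267, 0.0152 with normexp).

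Hepatocytes along the lobule differ, with urea and glucose synthesis near the portal vein and P450 and glutamine synthesis near the central vein. Both sets were represented: 20 of 22 periportal and 20 of 22 pericentral genes were higher in hepatocytes. The periportal median was 8.35, also with dim genes at their bounds, and 8.21 with normexp. The pericentral median was 7.82, but 6.97 with dim genes at their bounds and 5.44 with normexp. In the pericentral list Glul, glutamine synthetase, did not pass (difference 0.46, adjusted p = 0.438). Cdh1, listed as periportal, was higher in cholangiocytes (-3.77 ± 0.32). Lgr5, a Wnt-linked receptor of pericentral cells, was at least 97.8-fold higher in hepatocytes, and Tbx3 did not pass (3.3 ± 2.86, adjusted p = 0.353), although it did with the 6 arrays alone (adjusted p = 0.00141) and with normexp (0.0234).

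In metal handling, 21 of 28 genes were higher in hepatocytes, such as Tfr2, an iron sensor (11.57 ± 1.63), and 5 in cholangiocytes, which became 3 without cholangiocyte array 4. The metallothioneins, which bind zinc and copper, were among these. Mt2 stood at 5.73, 1.62, 0.94 and 0.78 in hepatocytes and at 7.23 and 7.79 in cholangiocytes (-5.24 ± 1.1, adjusted p = 0.00122), and Mt1 at 6.69, 4.07, 3.22 and 3.59 and 7.42 and 7.85 (-3.25 ± 0.71). Hepatocyte array 1 lay well above the other hepatocyte arrays for both genes, and all 4 lay below the cholangiocyte arrays.

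**Figure D3:**
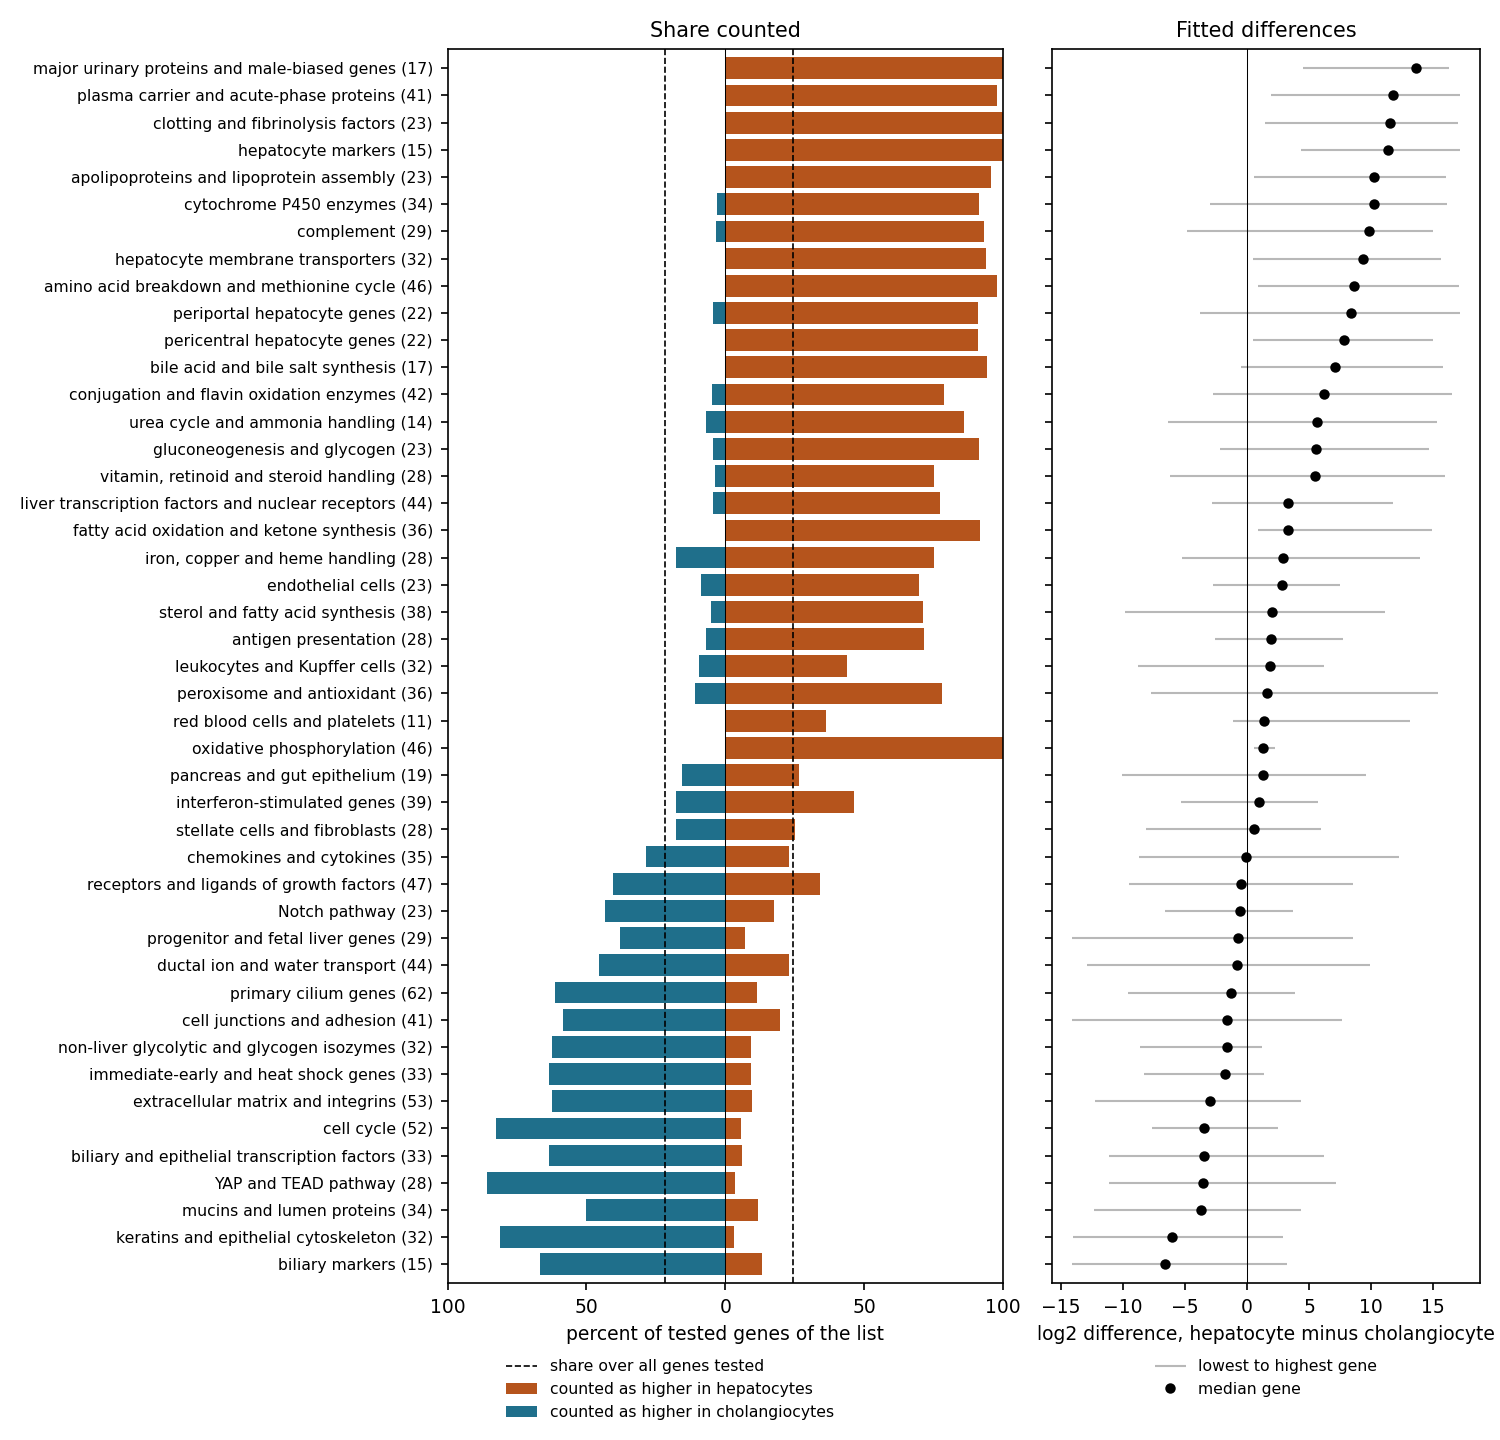
Left, percent of the tested genes of each of 45 lists (number in brackets) counted as higher in hepatocytes (to the right) or in cholangiocytes (to the left), with dashed lines at the shares over all genes, 24.4% and 21.6%. Right, the median gene of each list and the range from its lowest to its highest log2 difference. Secretory and metabolic lists lie at the top and keratin, YAP and cell cycle lists near the bottom.

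Many enzymes and carriers exist as a form typical of liver and a form used in most other tissues. In 12 pairs of related genes, 1 member was counted as higher in hepatocytes and the other as higher in cholangiocytes. The pairs were chosen after their values were seen, so they describe and do not test. Not every pair sets a liver form against a form of other tissues. The cadherin pair, for example, sets Cdh2 against Cdh1, which is also listed as periportal. Pyruvate kinase was divided between Pklr (4.5 ± 0.54) and Pkm (-8.63 ± 0.26) and glucose transport between Slc2a2 (6.94 ± 1.35) and Slc2a1 (-3.66 ± 0.57). The glycogen phosphorylases Pygl (9.88 ± 1.34) and Pygb (-6.17 ± 0.42) followed. Stearoyl-CoA desaturase, which makes monounsaturated fatty acids, was divided between Scd1 (5.66 ± 0.62) and Scd2 (-9.81 ± 0.5). The methionine adenosyltransferases had the smallest cholangiocyte side, with Mat1a at 11.55 ± 1.9 and Mat2a at -0.59 ± 0.17, and the Mat2a call was lost without cholangiocyte array 3 (difference -0.50, adjusted p = 0.0806) and with the 6 arrays alone (adjusted p = 0.0794). For gap and adherens junctions, Gjb1 (5.88 ± 1.11) and Cdh2 (5.04 ± 0.84) were the hepatocyte forms. Cldn1, the hepatocyte form of the claudin pair, differed by 4.91 ± 1.43 [1 of 2], and by 1.82 without cholangiocyte array 3 (adjusted p = 0.304). With the 6 arrays alone the adjusted p for Cldn1 was 0.0502.

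**Figure D4:**
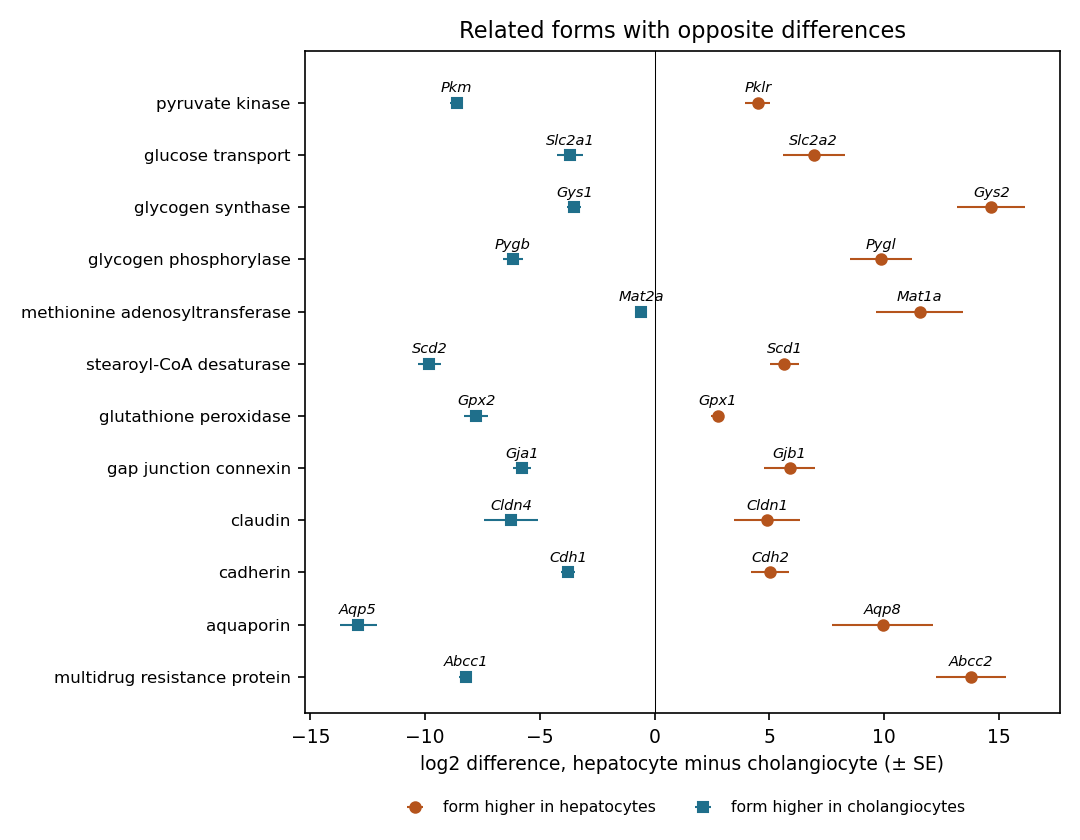
Log2 difference (hepatocyte minus cholangiocyte, ± SE) for 12 pairs of related genes, one row per pair, with circles for the form higher in hepatocytes and squares for the form higher in cholangiocytes. Every pair has a member on each side of 0, and the pairs were chosen for that.

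Of 32 glycolytic and glycogen genes of other tissues, 20 were higher in cholangiocytes and 3 in hepatocytes, the latter 0 with median scaling or quantile normalisation. The list shares 5 genes with the pairs, Pkm among them. The hexokinase Hk1 stood at -3.98, -2.27, -3.81 and -3.6 in hepatocytes and at 4.31 and 4.45 in cholangiocytes (-7.8 ± 0.42), and Hk2 was at least 188-fold higher in cholangiocytes. Pfkp, a phosphofructokinase, differed by -7.36 ± 0.48 [2 of 4] and Slc16a3, a lactate exporter, by -7.19 ± 0.71. Gapdh, often used as a reference gene, was at 8.18, 8.45, 8.26 and 8.54 in hepatocytes and 7.61 and 7.67 in cholangiocytes (0.72 ± 0.15). The Gapdh difference was 0.52 with median scaling (adjusted p = 0.0838) and 0.28 with its probes averaged (adjusted p = 0.18). It was -0.62 with quantile normalisation and -0.76 in the authors' deposited table (false discovery rate 0.0773). Its direction was thus not the same under all settings, and the cause was not tested.

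Cytoskeleton genes were mostly higher in cholangiocytes. Of 32 keratin and epithelial cytoskeleton genes, 26 were counted as higher in cholangiocytes, with a median of -6.01, -4.83 with normexp. Ezr, which ties actin to the apical membrane, was at -3.18, -3.8, -3.2 and -3.63 in hepatocytes and at 4.92 and 6.02 in cholangiocytes (-8.92 ± 0.32), and Vil1, the actin bundler of microvilli, was at least 224-fold higher in cholangiocytes. Krt80 was the single member higher in hepatocytes (2.93 ± 0.53), and there were 2 without hepatocyte array 3 and 3 with normexp. Of 41 junction and adhesion genes, 24 were higher in cholangiocytes and 8 in hepatocytes, the latter including Gjb1 and Cdh2.

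Of 33 biliary and epithelial transcription factors, 21 were higher in cholangiocytes (median -3.46, -3.06 with dim genes at their bounds and -1.48 with normexp). Klf5, a factor of proliferating epithelium, was at -8.72, -8.14, -8.46 and -7.83 in hepatocytes and 3.42 and 2.22 in cholangiocytes, at least 483-fold higher. Grhl2 (-7.96 ± 0.52 [2 of 4]), Ehf (-10.63 ± 1.32 [1 of 4]) and Elf3 (-8.58 ± 0.89 [1 of 4]), regulators of epithelial identity, followed, and Foxj1, the factor of motile cilia, was at least 52.6-fold higher in cholangiocytes. The 2 members higher in hepatocytes, 4 with normexp, were Zeb1, a repressor of epithelial genes (6.19 ± 0.3 [1 of 2]), and Creb5 (2.07 ± 0.22), whose call was lost when the probes of the gene were averaged (difference 0.70).

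Transport genes of the duct were counted in both directions. Of 44 ductal ion and water transport genes, 20 were higher in cholangiocytes (45.5%, against 21.6% of all genes). Another 10 were higher in hepatocytes (22.7%, near the 24.4% of all genes). The median was -0.8. With normexp 20 and 13 were counted, and the median changed sign, to 0.15. Aqp5, a water channel of glands, was at -6.4, -7.85, -5.86 and -6.89 and 6.84 and 5.5, at least 4558-fold higher in cholangiocytes, and Ano1, a calcium-activated chloride channel, differed by -11.14 ± 0.42 [1 of 4]. In contrast Slc4a2, the chloride-bicarbonate exchanger (2.49 ± 0.25), and Slc10a2, the apical bile salt carrier (5.77 ± 0.63), were higher in hepatocytes. Of 34 mucin and lumen protein genes, 17 were higher in cholangiocytes and 4 in hepatocytes. The list median was -3.72, -2.85 with dim genes at their bounds and -1.79 with normexp. The cholangiocyte arrays differed, with a mean level of 0.86 on array 3 and -1.72 on array 4, against -4.31 to -3.57 on hepatocyte arrays. Mmp7, a matrix protease of gland epithelium, was at -5.22, -4.09, -5.92 and -5.1 in hepatocytes and 7.75 and 6.73 in cholangiocytes (-12.32 ± 0.96 [3 of 4]), Ltf, the iron-binding lactoferrin, at -5.05, -4.33, -6.65 and -7.34 and 7.34 and 3.33 (-11.18 ± 1.07 [2 of 4]), and Slpi, a protease inhibitor of mucosa, differed by -8.87 ± 0.75. Pigr, which carries immunoglobulin A into bile, was higher in hepatocytes (3.84 ± 1.05), and without cholangiocyte array 4 the difference was 2.13 (adjusted p = 0.166).

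Of 62 primary cilium genes, 38 were higher in cholangiocytes and 7 in hepatocytes, with a small median of -1.26. Bicc1, an RNA-binding protein whose loss gives cysts, differed by -9.59 ± 0.24 [3 of 4] and Ift57, of the intraflagellar transport complex, by -5.47 ± 0.41. Kif17, a ciliary motor (3.83 ± 0.26), and Wdr34, a dynein chain (2.73 ± 0.23), were higher in hepatocytes, beside Pkhd1. In the Notch pathway, which instructs duct formation, 10 of 23 genes were higher in cholangiocytes and 4 in hepatocytes. The ligands Jag1 (-2.98 ± 0.4) and Jag2 (at least 21.3-fold), the receptor Notch3 (-5.69 ± 0.94 [1 of 4]) and the target Hey1 (-5.37 ± 0.85 [1 of 4]) were on the cholangiocyte side, and Notch2 on the hepatocyte side (0.98 ± 0.2). Of 29 progenitor and fetal liver genes, 11 were higher in cholangiocytes and 2 in hepatocytes, with a median of -0.75.

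The pathway of YAP, a co-activator that responds to cell shape and density, gave a high share. The list holds components of the pathway as well as genes that YAP activates, so its count is not one of activated genes alone. Of 28 YAP and TEAD pathway genes, 24 were higher in cholangiocytes, against 21.6% of all genes, with a median of -3.52, -3.26 with dim genes at their bounds and -1.85 with normexp. Ccn2 was at -5.45, -4.79, -4.01 and -5.3 in hepatocytes and at 5.55 and 6.96 in cholangiocytes, and Ankrd1 differed by -9.84 ± 0.76 [1 of 4]. Areg, an epidermal growth factor receptor ligand, was at least 245-fold higher in cholangiocytes. Dlc1, a regulator of small GTPases, was the member higher in hepatocytes (7.17 ± 0.92 [1 of 2]). Receptors and ligands of growth factors were divided, with 16 of 47 higher in hepatocytes, such as Ghr, the growth hormone receptor (6.75 ± 0.79), and Erbb4 (at least 51-fold), and 19 in cholangiocytes, such as Wnt7a (at least 154-fold).

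Of 53 extracellular matrix and integrin genes, 33 were higher in cholangiocytes and 5 in hepatocytes. Itgb6, an epithelial integrin chain (at least 221-fold), Thbs1, a matricellular protein (at least 85.1-fold), and Plaur, the urokinase receptor (-10.36 ± 0.36 [3 of 4]), were on the cholangiocyte side. Fn1, whose plasma form is made by hepatocytes, was at 7.08, 7.06, 7.0 and 6.8 and 2.43 and 2.85 (4.35 ± 0.24), and Col18a1, the source of endostatin, differed by 3.16 ± 0.29.

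Of 52 cell cycle genes, 43 were higher in cholangiocytes and 3 in hepatocytes, with a median of -3.44, -2.02 with normexp. Ccnd2, a cyclin that starts the cycle, was at -3.86, -3.4, -3.6 and -3.84 in hepatocytes and 2.17 and 4.97 in cholangiocytes (-7.25 ± 0.66). Top2a, a topoisomerase of dividing cells, was at -7.17, -7.79, -5.5 and -7.6 and -0.34 and -1.35 (-6.17 ± 0.54 [1 of 4]). Kif23, a motor of cytokinesis, was at least 54.5-fold and Bub1, a spindle checkpoint kinase, at least 20.0-fold higher in cholangiocytes. Tk1, thymidine kinase, was higher in hepatocytes (2.5 ± 0.46). Immediate-early and heat shock genes, which also respond to cell isolation, were higher in cholangiocytes for 21 of 33, with Atf3 (-6.23 ± 0.64), Klf6 (-5.33 ± 0.3) and Gadd45b (-6.07 ± 0.45) among them, while Egr1 did not pass (-1.6 ± 0.96, adjusted p = 0.18). The part of cell isolation in these differences was not tested.

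**Figure D5:**
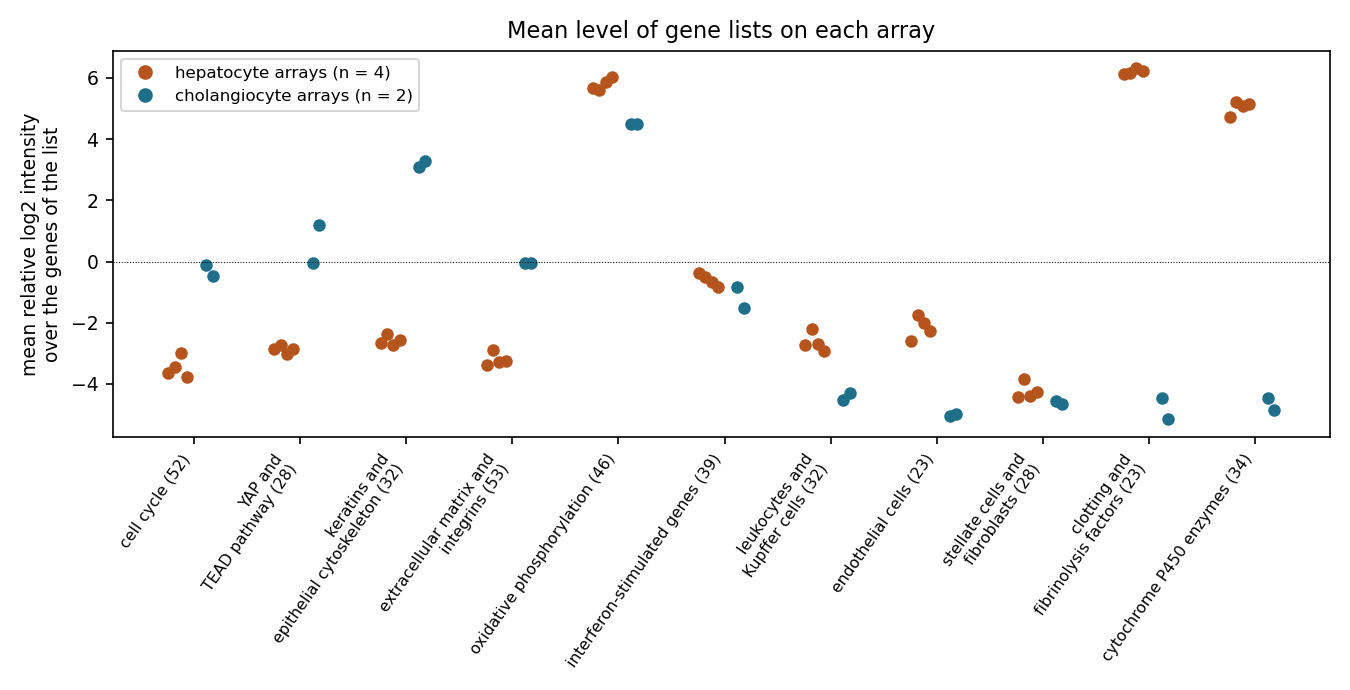
Mean relative log2 intensity over the tested genes of 11 lists on each of the 6 arrays (number of genes in brackets). Arrays are to be compared within a list, since probes of different genes are not on a common scale. The cholangiocyte arrays lie above all hepatocyte arrays for the cell cycle, YAP, keratin and matrix lists and below them for the oxidative phosphorylation, endothelial, leukocyte, clotting and P450 lists.

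Interferon-stimulated genes were counted more often as higher in hepatocytes (46.2%, against 24.4% of all genes). The share higher in cholangiocytes (17.9%) was below the 21.6% of all genes. Of 39, 18 were higher in hepatocytes and 7 in cholangiocytes. The hepatocyte side included immunity-related GTPases, with Iigp1 at 3.47, 3.37, 3.63 and 3.36 and -2.08 and -2.38 (5.69 ± 0.4), Ifi47 at a difference of 5.6 ± 0.33 and Igtp at 4.21 ± 0.35. The cholangiocyte side included oligoadenylate synthetases, which sense viral RNA, with Oas1a at -1.24, -0.97, -1.05 and -1.87 and 3.52 and 2.43 (-4.25 ± 0.68) and Oasl2 at a difference of -5.31 ± 0.76 [3 of 4], and the nuclease Isg20 (-4.08 ± 0.29). Of 28 antigen presentation genes, 20 were higher in hepatocytes and 2 in cholangiocytes (1 without cholangiocyte array 4), the former including Psmb8, an immunoproteasome subunit (3.66 ± 0.52), and Nlrc5, an activator of class I genes (7.18 ± 1.29 [1 of 2]). H2-Q7 differed by 3.55 ± 0.44, although probes of this gene family may read several members. Of 35 chemokines and cytokines, 8 were higher in hepatocytes (22.9%) and 10 in cholangiocytes (28.6%), with a median of -0.11. These shares lie near the 24.4% and 21.6% of all genes. On the hepatocyte side were Cxcl12, which guides leukocytes and progenitors (12.23 ± 1.27), and Ccl9 (9.95 ± 1.23). On the cholangiocyte side were Ccl2, which attracts monocytes (-6.19 ± 0.66 [3 of 4]), and Cx3cl1 (at least 145-fold).

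Markers of other liver cells were counted in both directions, but the shares higher in cholangiocytes were below the 21.6% of all genes. They were 8.7% for endothelial genes, 9.4% for leukocyte and Kupffer cell genes and 17.9% for stellate cell and fibroblast genes. The shares higher in hepatocytes were 69.6%, 43.8% and 25% in the same order, the last of these near the 24.4% of all genes. Of 23 endothelial genes, 16 were higher in hepatocytes and 2 in cholangiocytes (1 without hepatocyte array 1, 3 or 4 or cholangiocyte array 3), and their mean level was -2.58 to -1.74 on hepatocyte arrays and -5.06 and -4.99 on cholangiocyte arrays. Stab2, a scavenger receptor of sinusoidal endothelium, was at 0.51, 1.14, 0.81 and 0.48 and -6.26 and -7.2 (7.47 ± 0.98), and Gpr182 was at least 119-fold higher in hepatocytes. Of 32 leukocyte and Kupffer cell genes, 14 were higher in hepatocytes and 3 in cholangiocytes, with a mean level of -2.92 to -2.20 against -4.54 and -4.30. Clec4f, a marker of Kupffer cells, was at -2.97, -1.66, -1.62 and -2.95 in hepatocytes and below background in cholangiocytes (at least 39.1-fold), and Vsig4 differed by 5.87 ± 1.0 [1 of 2]. Cd68 (at least 19.6-fold) and Cd14 (-8.79 ± 0.37), also in this list, were higher in cholangiocytes. The part of these cells in the hepatocyte values of antigen presentation and chemokine genes was not tested.

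Of 28 stellate cell and fibroblast genes, 7 were higher in hepatocytes and 5 in cholangiocytes, and the mean level was -4.44 to -3.84 and -4.66 and -4.54. Lrat, which stores retinol in stellate cells, was at least 14.1-fold higher in hepatocytes, and Dcn, a matrix proteoglycan, differed by 5.09 ± 1.08. Fbln2 (-8.16 ± 0.74) and Ecm1 (-5.46 ± 0.36) were higher in cholangiocytes. Col1a1 did not pass (-1.61 ± 1.41 [1 of 4], adjusted p = 0.358) and was at -4.46 without cholangiocyte array 4 (adjusted p = 0.0228). Of 11 red blood cell and platelet genes, 4 were higher in hepatocytes, with Hba-a1, a globin, at -2.56, -1.54, -1.16 and -0.9 and -5.69 and -4.5 (3.56 ± 0.61), and Alas2, the red cell enzyme of heme synthesis, at least 3276-fold higher. Of 19 pancreas and gut genes, 5 and 3 were counted.

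Promoters were searched because several lists had nearly all members counted in 1 direction. RefSeq (GRCm38.p6) promoters of 27025 genes were used, of which 14834 were tested on the arrays, and of the 30 markers 20 had one. The 250 bases before the start site were searched on both strands for 6 motifs, and a base could count for more than 1 motif. The motifs were chosen with earlier results of these data known. CAAAGTCCA, a site type of HNF4, was in 1.96% of 815 promoters of genes counted as at least 16-fold higher in hepatocytes, in 0.448% of 893 for cholangiocytes and in 0.381% of all. TTGCNNAA, for C/EBP factors, was in 14.7%, 8.85% and 9.55%. TATAAA was in 16.6%, 9.29% and 13%. Motifs of factors linked to ducts followed: GGAATG for TEAD was in 14.1%, 12.4% and 12.6%, TGANTCA for AP-1 in 8.47%, 8.29% and 6.87%, and AACCNGGTT for GRHL in 0.245%, 0.224% and 0.244%. Among the 14834 tested genes alone the shares were 0.411% for HNF4, 8.45% for C/EBP, 9.81% for TATAAA, 11.4% for TEAD, 5.62% for AP-1 and 0.263% for GRHL. These shares describe letters in a short window and were not tested.

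The promoters of 2 markers of each type that hold such a motif are printed, as the 250 bases before the start site, 5′ to 3′ on the strand of the gene, with the matches in capitals. The Alb promoter (chr5:90460620-90460869, plus strand) holds a C/EBP match at positions -94 to -87 relative to the start. The Asgr1 promoter (chr11:70053874-70054123, plus strand) holds a C/EBP match at -136 to -129 and an AP-1 match at -226 to -220. Of the cholangiocyte markers, Cldn7 (chr11:69964529-69964778, plus strand) holds a TEAD match at -70 to -65 and Prom1 (chr5:44101737-44101986, minus strand) an AP-1 match at -88 to -82. Of the marker promoters searched singly, 4 of 12 of hepatocytes and 2 of 5 of cholangiocytes held a motif other than TATAAA, and those of Krt7 and Epcam held none of the 6. These shares cover only markers counted as higher in their own type, which are fewer than the 20 with a promoter.
Alb: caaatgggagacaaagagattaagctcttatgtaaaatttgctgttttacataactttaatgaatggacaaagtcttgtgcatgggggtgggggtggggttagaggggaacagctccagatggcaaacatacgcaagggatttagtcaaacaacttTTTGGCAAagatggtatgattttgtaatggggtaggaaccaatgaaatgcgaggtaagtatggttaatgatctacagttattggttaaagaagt
Asgr1: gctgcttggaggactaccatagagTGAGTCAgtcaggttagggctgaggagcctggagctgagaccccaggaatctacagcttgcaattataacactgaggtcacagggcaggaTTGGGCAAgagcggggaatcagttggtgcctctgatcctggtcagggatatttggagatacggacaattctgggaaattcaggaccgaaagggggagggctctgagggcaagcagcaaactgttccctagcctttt
Cldn7: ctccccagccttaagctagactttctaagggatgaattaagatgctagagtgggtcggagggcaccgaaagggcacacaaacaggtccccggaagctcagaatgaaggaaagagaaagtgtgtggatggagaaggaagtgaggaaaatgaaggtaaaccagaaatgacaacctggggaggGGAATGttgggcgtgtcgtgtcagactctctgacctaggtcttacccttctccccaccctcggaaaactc
Prom1: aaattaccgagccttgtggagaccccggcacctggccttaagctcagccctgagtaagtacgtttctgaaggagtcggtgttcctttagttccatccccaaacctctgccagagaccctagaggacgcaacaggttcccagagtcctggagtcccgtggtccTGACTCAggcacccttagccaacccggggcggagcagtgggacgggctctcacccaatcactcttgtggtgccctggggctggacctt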

How the data were processed

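Primary hepatocytes (4 arrays) and primary cholangiocytes (2 arrays) were measured on single-colour Agilent mouse arrays with 17 arrays in all, and groups follow the titles. Per the file headers, the deposited intensity values are background-subtracted signals of Agilent Feature Extraction 10.5.1.1, while the submitters' processing notes name version 9.53. The authors' deposited table gives signed fold changes as a score and a false discovery rate in percent, with the test not given in the sources used here, and 354 of its cells hold no number.

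Control spots and outlier-flagged spots were left out, replicate spots of a probe were averaged, and log2 intensity minus the 75th percentile of each array was used. Probes were kept if well above background on at least 2 of the 17 arrays (32302 probes), and the probe with the highest mean stood for a gene. Of 39429 probes, 26524 were named through the accession, 3781 by symbol and 716 by a former symbol, and for 8408 the name printed in the scanner file was used. Differences, hepatocyte minus cholangiocyte, were tested with limma 3.58.1 (R 4.3.3) on all 17 arrays with 5 group means, with Benjamini-Hochberg adjustment over 25971 genes. The ± values are standard errors. The condition that a counted gene be well above background in the higher type was added after the data were seen.

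Genes were named by rule: the markers, the 12 largest differences and the 12 largest bounds per direction, up to 5 counted and 3 not passing per list, and the other forms of the related pairs. Some genes and a motif that these rules include are not reported here. The markers, the 45 lists (1304 genes tested), the pairs and the promoter motifs were chosen with earlier results of these data known. Data were also simulated on this design, with only 50 of 25971 genes changed at each size. The test recovered 0%, 6%, 46% and 88% of genes changed by 0.5, 1, 2 and 4 on the log2 scale, and 5.41% of calls were false. In the real data 12889 genes passed. The adjustment is stricter when few genes change, so the simulated shares do not carry over to this comparison.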

Additional observations from a re-analysis of the deposited data

Results flagged for a closer look

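Among 229 sets of 4 hepatocyte values examined for a single array far from the rest, 9 were flagged, and chance flags about 1 in 20 such groups. Hepatocyte array 1 stood apart for Mt2 at 5.73 (others 0.78 to 1.62), for Ccl9 at 3.52, for Fbln2 at -3.53 and for the mean level of the periportal genes at 5.17. Array 2 stood apart for Ppara at 5.29, although its 4 values lie close together. Array 3 stood apart for Elf3 at -7.71 and for the mean level of the biliary markers at -4.57. Array 4 stood apart for Vil1 at -7.14 and for Cdh1 at 0.21. No other results were flagged, and the 2 cholangiocyte arrays are too few to examine in this way.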

How the results depend on the processing

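Counts of genes that passed moved by over 1.5 times for hepatocytes with normexp background correction (14296 in place of 7271) and with no filter on dim probes (11388). The samples share 2 replicate numbers (3 and 4), and the correlations of same-numbered deviations were 0.141 and 0.047. The deviations of only 2 cholangiocyte arrays mirror each other, so these values cannot decide whether the numbers pair the samples. The main fit does not use the numbers. With replicate number as a block, 2452 and 2109 genes passed as higher in hepatocytes and in cholangiocytes, and 2214 and 2109 were counted, 35.53% of the genes counted without it and 0 of them in the opposite direction. The 46 oxidative phosphorylation genes then gave 2. Leaving out 1 array at a time gave 5942 to 7550 passing genes for hepatocytes and 4729 to 5366 for cholangiocytes, and 5250 to 6337 and 4662 to 5361 counted genes. The other settings (median scaling, quantile normalisation, a stricter filter, the mean of the probes, the 6 arrays alone, the slide as a block and array weights) kept these counts within 1.5 times. In the authors' deposited table, a total of 5281 and 6278 genes had a false discovery rate under 5%, and 98.92% of the counted genes had the same direction. Of the 184 genes in the text, 171 passed, 23 of these lost the call under some setting and 8 others gained one. The direction reversed for Cyp1b1 with normexp (0.0141) and for Gapdh with quantile normalisation (-0.62) and in the authors' deposited table (-0.76), and the cause was not tested. The median of all genes was 0.35, and 0.86 with normexp, 0.15 with median scaling and 0.00 with quantile normalisation. The median of ductal transport, growth factor and chemokine lists turned with normexp, to 0.15, 0.06 and 0.90. Low signal over background limits every level given as a bound.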
